A study of Mus musculus with 6 samples.

Results

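The cells described here are blood endothelial cells of the mouse mitral valve that carried transcripts of Npr3 or H19. They were picked from all 6 libraries by their counts of unique molecular identifiers (UMIs), the tags that mark single captured transcripts. A barcode had to hold at least 300 genes, at most 10% mitochondrial UMIs and at least 3 UMIs over the endothelial genes Pecam1, Cdh5, Emcn and Egfl7. Fewer than 1% of its UMIs could come from the fibroblast genes Dcn, Col1a1 and Col1a2, Ptprc had to be at 0, and the lymphatic genes Prox1, Mmrn1 and Flt4 could sum to at most 1 UMI. It finally had to hold at least 1 UMI of Npr3 or H19 and at most 1 UMI over Cd36, Rgcc, Aqp1 and Fabp4, called the Fabp4 set below. This gave 733 cells of 53526 barcodes kept, out of 58351 deposited, and of 2665 cells in the blood endothelial gate. They were compared with the 625 gated endothelial cells that held no Npr3 or H19 and at least 2 UMIs of the Fabp4 set.

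Each of the 6 libraries held live sorted single cells from digested mitral valves of 1 genotype at 1 age. K/B.g7 mice, whose valves are labelled inflamed, were sampled at 3, 8 and 25 weeks, and B.g7 mice, whose valves are labelled control, were sampled at the same ages. As background, K/B.g7 mice carry a transgenic T cell receptor (KRN) together with the g7 haplotype of the major histocompatibility complex and develop autoimmune arthritis and carditis, while B.g7 mice carry the haplotype without the receptor. The number of mice behind a library is not given in the sources used here. P-values therefore describe the spread among libraries alone, which may be technical. The edgeR fits of the described cells in 4 libraries, used below, left 1 residual degree of freedom. Their spread was therefore pooled over genes, and their p-values do not measure a gene's own spread among libraries. The libraries held between 15196750 (B.g7, 3 weeks) and 69152541 UMIs (K/B.g7, 25 weeks). The described cells numbered 40, 110 and 211 by age among K/B.g7 cells, against 23, 339 and 10 among B.g7 cells, and values below follow this order of ages. Their summed UMIs were 156028, 283810 and 471881 for K/B.g7 and 65748, 999578 and 36910 for B.g7, so that a count of 3 UMIs equals between 3.0 and 81.3 CPM, the UMIs of a gene scaled to a fixed total. The B.g7 library at 25 weeks, with 10 cells, is given as values and enters tests only where stated.

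As background, the endocardium is the endothelium that lines the chambers of the heart, and valve endothelium covers the leaflets and borders the flowing blood. Npr3 encodes the clearance receptor that removes natriuretic peptides, and in mice it is a marker of endocardium. H19 is an imprinted long noncoding RNA that is abundant in fetal tissue and is made from the maternal copy, next to the growth factor gene Igf2. In mm10, the genome build of the deposited counts, Npr3 lies at chr15:11839896-11907287 (minus strand) and H19 at chr7:142575529-142578143 (minus strand), by the GENCODE M21 annotation.

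The gate fixed the levels of Npr3 and H19, which are therefore given as a description. Npr3 was at 891, 1931 and 2556 CPM in K/B.g7 and 304, 2444 and 650.2 CPM in B.g7. H19 was at 532, 514 and 737 CPM in K/B.g7 and 1703, 1044 and 650.2 CPM in B.g7. Npr3 was thus lowest and H19 highest in the B.g7 library at 3 weeks. Npr3 alone admitted 360 cells, H19 alone 37 and both genes 336. In the B.g7 library at 3 weeks 12 of 23 cells came in by H19 alone, against between 3 and 7 cells in each other library. Of all 733 cells, 72 were admitted by a single UMI of either gene. Of the Fabp4 set, 509 cells held 0 UMIs and 224 held 1. The Npr3 level was 2331 CPM in the cells with 0 UMIs and 1865 CPM in those with 1, against 1606 CPM in the 120 cells just outside, with 2 UMIs. A further 953 cells with Npr3 or H19 held 3 or more UMIs of the Fabp4 set, so the upper limit on that set cuts through a continuous range.

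The gate also fixed much of the levels of Pecam1, Cdh5 and Emcn, which are given as a description. Pecam1, which encodes an adhesion molecule of endothelial junctions, was at 788, 1237 and 1274 CPM in K/B.g7 and 928, 1171 and 894 CPM in B.g7. Cdh5, the cadherin of those junctions, was at 333, 373 and 572 CPM in K/B.g7 and 471, 438 and 244 CPM in B.g7. Emcn, a sialomucin of the endothelial surface, was at 1487, 1159 and 1034 CPM in K/B.g7 and 1004, 1989.8 and 921 CPM in B.g7. At least 1 UMI of Pecam1 or Cdh5 was present in 705 of the 733 cells. Vwf, which encodes von Willebrand factor, was at 513, 729 and 996 CPM in K/B.g7 and 243, 1304 and 1111 CPM in B.g7. Vwf was not used by the gate, and its level was lowest in B.g7 at 3 weeks. Over the 14 pan-endothelial genes that the gate did not use, the described cells summed to 4653, 4426 and 4857 CPM in K/B.g7 and 4974, 6868 and 4633 CPM in B.g7, and the Fabp4 set to 1955, 4586 and 4332 CPM in K/B.g7 and 1340.1, 4641 and 5449 CPM in B.g7, with 0 of these genes at 0 in all libraries. Over the 11 capillary genes outside the gate the described cells summed to 3756, 2660.2 and 2083 CPM in K/B.g7 and 3635, 4294 and 1029.5 CPM in B.g7, and the Fabp4 set to 1347, 607 and 892 CPM in K/B.g7 and 1418, 1289.7 and 1423 CPM in B.g7. Of the 4 of these at a mean of at least 50 CPM, Cd300lg was higher than in the Fabp4 set in all 6 libraries and 0 were lower, while Car4 and Btnl9 were at 0 in all described cells. Without clusters 5 and 6, described below, Fabp5 alone was at 5510, 2514 and 1867 CPM in K/B.g7 and 4304, 3879 and 1099 CPM in B.g7. Timp4 and Aplnr were at 0 there, and Tcf15 and Meox2 at 41.8 CPM or less. The capillary sums of the described cells thus mainly follow Fabp5 and not the list as a whole.

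The valve part of the label was not settled by these levels. Among 13 genes of the valve and endocardial list that the gate did not use, Vwf and Gata6 were higher than in the Fabp4 set in all 6 libraries and Tbx20 was lower in all 6. The rest were mixed. Over all measurable genes 11.1% were higher and 14.7% lower in all 6, so these counts do not set the list apart. Wnt9b, which belongs to the Wnt list and not to this one, encodes a secreted Wnt ligand of mouse valve endothelium. It was at 6.41, 3.52 and 2.12 CPM in K/B.g7 and 15.2, 1.0 and 27.1 CPM in B.g7. In the Fabp4 set Wnt9b was at 65.8, 262 and 185 CPM in K/B.g7 and 100.2, 51.5 and 237 CPM in B.g7. Hapln1, a gene of the valve and endocardial list, encodes a link protein of the valve matrix. It was at 51.3, 10.6 and 19.1 CPM in K/B.g7 and 167, 1.0 and 27.1 CPM in B.g7. In the Fabp4 set Hapln1 was at 103, 217 and 409.7 CPM in K/B.g7 and 67.2, 81.3 and 297 CPM in B.g7. Wnt9b was thus lower in the described cells in every library, and Hapln1 in every library except B.g7 at 3 weeks. Cytl1, another gene of the list, had overlapping levels, at 724, 1099 and 939 CPM in K/B.g7 and 532, 953 and 1788 CPM in B.g7, against 1058, 874 and 1560.0 CPM in K/B.g7 and 133, 1618 and 1027 CPM in B.g7 in the Fabp4 set. The cells are for this reason called Npr3 or H19 endothelium and not valve endothelium.

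**Figure D1:**
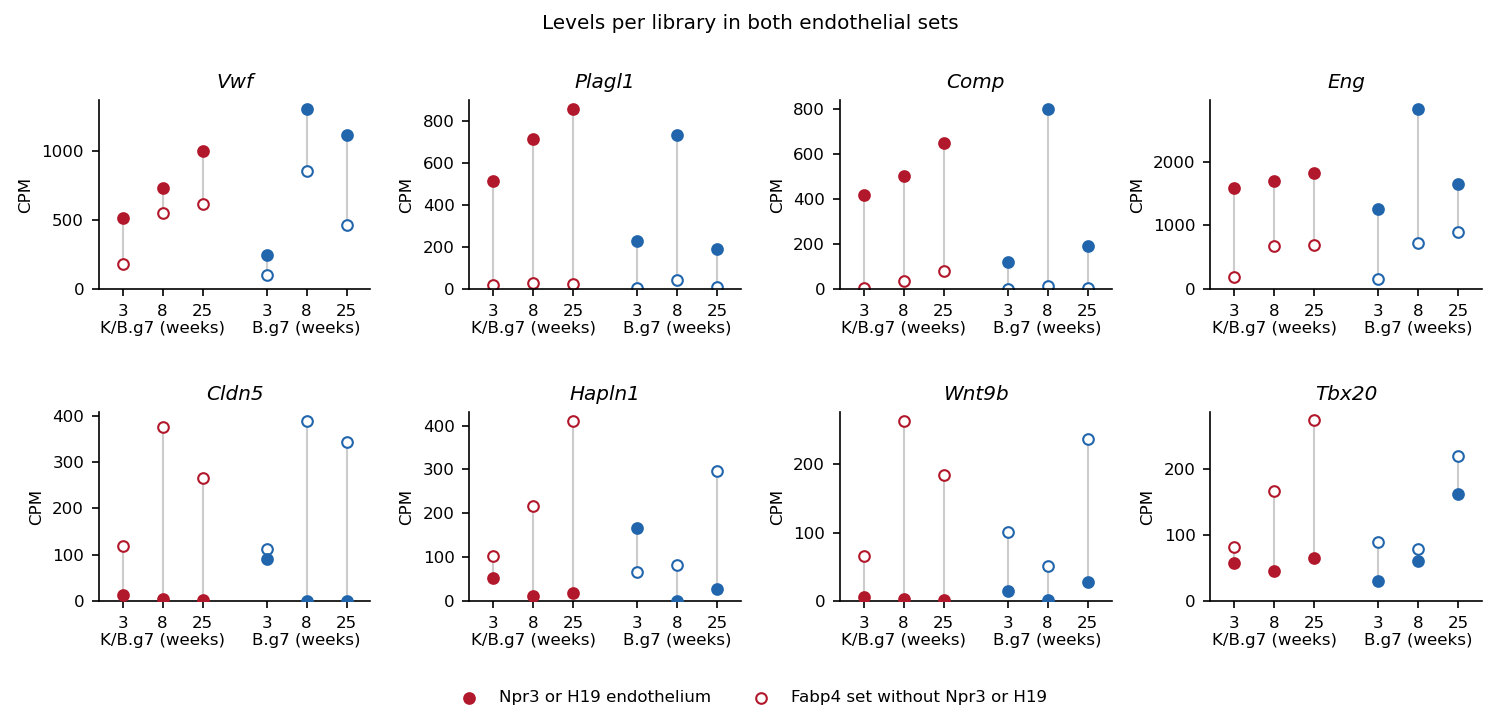
Levels of 8 genes in CPM (y axis) per library, with the 3 K/B.g7 libraries left and the 3 B.g7 libraries right by age in weeks. Filled points are the Npr3 or H19 endothelium, open points the Fabp4 set without Npr3 or H19 of the same library. Plagl1, Comp, Eng and Vwf sit higher in the filled points of all 6 libraries, and Wnt9b, Cldn5 and Tbx20 in the open points.

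Because the gate split the same cells by expression, the comparison with the Fabp4 set is a description without a test. It used log2 ratios of CPM with a pseudocount of 5 CPM. Of 3786 genes at a mean of at least 50 CPM in either set, 420 (11.1%) were higher in the Npr3 or H19 endothelium in all 6 libraries and 558 (14.7%) were lower in all 6. The highest median ratio at this pseudocount belonged to Plagl1, an imprinted zinc finger transcription factor at chr10:13060504-13131694 (plus strand), with a log2 ratio of 4.45 (range 3.93 to 4.92). It was at 513, 712 and 854 CPM in K/B.g7 and 228, 734 and 189.7 CPM in B.g7. In the Fabp4 set it was at 18.8, 27.6 and 23.4 CPM in K/B.g7 and 3.54, 43.4 and 6.91 CPM in B.g7. The groups did not overlap. Cdkn1c, an imprinted inhibitor of the cell cycle, was also higher in all 6 libraries, at 199, 141 and 104 CPM in K/B.g7 and 198, 210.1 and 54.2 CPM in B.g7, against 14.1, 49.3 and 32 CPM in K/B.g7 and 13, 35.2 and 36.8 CPM in B.g7 in the Fabp4 set. Meg3, another imprinted noncoding RNA of the same list, was lower in all 6. Of 6 measurable genes of the imprinted list that the gate did not use, 2 were higher, 1 was lower and 3 were mixed.

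Comp, which encodes cartilage oligomeric matrix protein, had a median log2 ratio of 4.35 (range 2.99 to 5.56). At a pseudocount of 1 CPM its ratio was 5.43, above the 4.67 of Plagl1. It was at 417, 504 and 648 CPM in K/B.g7 and 122, 798 and 189.7 CPM in B.g7. In the Fabp4 set it was at 3.91, 35.5 and 77.5 CPM in K/B.g7 and 1.18, 13.5 and 4.61 CPM in B.g7. Comp was thus above the Fabp4 set in every library, by the smallest margin in K/B.g7 at 25 weeks. Of 15 measurable basement membrane and matrix genes, Lama4, Lamc1 and Nid1 were higher in all 6 libraries and Fbln5 and Sparcl1 were lower. Hmcn1, which encodes the extracellular protein hemicentin, had a ratio of 2.87 (range 1.65 to 4.56), and Col23a1, a transmembrane collagen, one of 2.61 (range 1.74 to 3.07). Tfpi, the inhibitor of the tissue factor pathway of clotting, was at 154, 179.7 and 292 CPM in K/B.g7 and 183, 258 and 217 CPM in B.g7, against 17.2, 39.4 and 64 CPM in K/B.g7 and 5.89, 75.9 and 29.9 CPM in B.g7 in the Fabp4 set. Of 13 measurable hemostasis genes, Vwf, Tfpi and Ptgs1 were higher in all 6 libraries and Anxa2 was lower.

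Further genes with a higher level in all 6 libraries, by median log2 ratio, were Ahsg (3.79), Pla2g7 (3.15), Sall1 (3.08), Enpp2 (2.99), Gpm6a (2.71), Dusp2 (2.57), Ednrb (2.44), Acer2 (2.44), Adgra2 (2.44), Epha7 (2.43) and Ptgs2 (2.41). Enpp2 encodes autotaxin, which makes lysophosphatidic acid, Ednrb is an endothelin receptor, and Ptgs2 is the inducible cyclooxygenase. The log2 ratio of Enpp2 ranged from 0.46 to 7.18, with 66.9 against 47.3 CPM in K/B.g7 at 8 weeks. In cluster 6, described below, Enpp2 was at 928 CPM, against 112 CPM in the other described cells. The BMP and TGF-beta genes Eng, Id2, Smad7 and Ltbp4 were higher in all 6 libraries and Tgfb1 was lower, among 15 measurable members. Eng, the co-receptor endoglin, was at 1583, 1691 and 1831 CPM in K/B.g7 and 1262, 2834 and 1653 CPM in B.g7, against 192, 673 and 693 CPM in K/B.g7 and 158, 723 and 894 CPM in B.g7 in the Fabp4 set. The Notch target Hey1 was higher and Hey2 lower in all 6 among 7 measurable Notch genes.

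Cldn5, which encodes a claudin of tight junctions, was at 12.8, 3.52 and 2.12 CPM in K/B.g7 and 91.3, 0 and 0 CPM in B.g7. In the Fabp4 set Cldn5 was at 118, 375 and 265 CPM in K/B.g7 and 112, 387 and 343 CPM in B.g7. Its median log2 ratio was -5.36 (range -6.29 to -0.28), and both sets were close in B.g7 at 3 weeks. Sox17, a transcription factor of arterial endothelium, had a ratio of -4.05 (range -5.31 to -2.66), and Nppc, which encodes the C-type natriuretic peptide that Npr3 clears, was at 0 in the described cells of all 6 libraries, which allows up to the level of 3 UMIs given above. Nppc was at 54.8, 459.6 and 65.2 CPM in K/B.g7 and 51.9, 70.4 and 205 CPM in B.g7 in the Fabp4 set. Ly6c1 (-4.58), Pthlh (-4.28), Serpina1b (-4.32), Ptprr (-3.92), Dkk2 (-3.84) and Pdgfa (-3.75) were also lower in all 6. The lower genes Stmn2 (-6.38), Sncg (-3.91) and Rgs4 (-3.59) are known from neurons, and Tagln (-5.25), Myh11 (-3.61) and Rgs5 (-4.12) from smooth muscle and pericytes. Over the 11 neuronal markers the described cells summed to 5852, 35.2 and 42.4 CPM in K/B.g7 and 380.2, 65 and 108.4 CPM in B.g7, and the Fabp4 set to 21208, 239 and 276 CPM in K/B.g7 and 27797, 2111 and 230.3 CPM in B.g7. Over the 8 mural markers the described cells summed to 295, 106 and 1153 CPM in K/B.g7 and 15.2, 82 and 135 CPM in B.g7, and the Fabp4 set to 1259.7, 1284 and 3432 CPM in K/B.g7 and 803, 3739 and 1322 CPM in B.g7. Of 7 measurable fibroblast markers outside the gate, Lum, Pdgfra and Mfap4 were higher in the described cells in all 6 libraries and 0 were lower. The part of neuronal, mural and fibroblast RNA in the ratios between the sets was not tested.

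Set against the 1073 cells that held Npr3 or H19 and at least 2 UMIs of the Fabp4 set, the described cells differed far less. Of 3495 genes, 102 (2.92%) were higher and 165 (4.72%) lower in all 6 libraries. Plagl1 had a median log2 ratio of 0.59 and Comp one of 0.67. Lower in all 6 were Pthlh (-3.14), which encodes a parathyroid hormone-like peptide, the neuronal gene Stmn2 (-2.97), Srgn (-1.52), a proteoglycan core of secretory granules, and Selp (-1.42), the adhesion molecule P-selectin.

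Leiden clustering split the 733 cells into 7 groups, which are named by number and leading genes. Cluster 1 (182 cells) was led by Pgm5 and Tmem158 and held 6, 29 and 117 cells of K/B.g7 and 2, 27 and 1 of B.g7. Cluster 2 (190 cells) was led by Klk8, Cd300lg and Lyve1 and held 13, 7 and 9 cells of K/B.g7 and 2, 159 and 0 of B.g7. Most of cluster 1 was thus K/B.g7 at 25 weeks, and most of cluster 2 was B.g7 at 8 weeks, so each is mostly 1 library and a type cannot be told apart from a library. Cluster 3 (140 cells) was led by the stress-response genes Cebpd, Socs3 and Gadd45b and was found in all 6 libraries. Cluster 4 (69 cells) was led by Cd300lg and Igfbp5, and cluster 7 (45 cells) by Cstf3, Hsph1 and Hmox1.

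Clusters 5 and 6 had leading genes that go against an endothelial name. Cluster 5 (67 cells) was led by Gsn, Clec3b, Ly6a and Col1a1, and 52.2% of its cells were predicted doublets. It held 6, 14 and 30 cells of K/B.g7 and 0, 14 and 3 of B.g7. Cluster 6 (40 cells) was led by Lsamp, Stmn1 and Cd24a, with Enpp2 and Pdgfra among its first 10 genes, and had an Npr3 level of 212 CPM, against 1004 CPM or more in every other cluster. It held 7, 3 and 7 cells of K/B.g7 and 14, 5 and 4 of B.g7. Together these clusters made up 14 of 23 cells of B.g7 at 3 weeks and 7 of 10 at 25 weeks. For some genes named below, levels are therefore also given in the 626 cells left without them, an alternative chosen after the data were seen. These were 27, 93 and 174 cells of K/B.g7 and 9, 320 and 3 of B.g7. Where no such level is given, it is not shown whether a result stands without clusters 5 and 6.

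**Figure D2:**
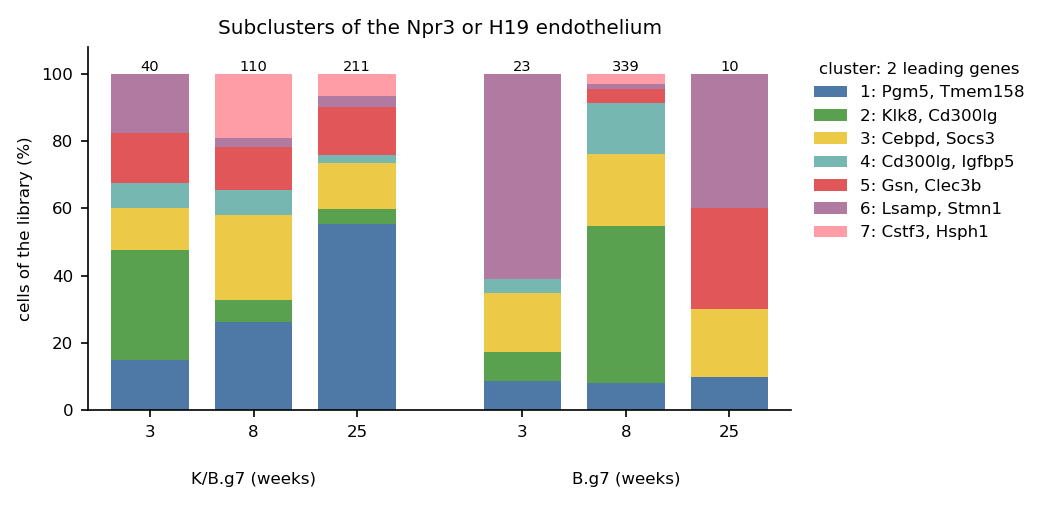
Share of the Npr3 or H19 endothelium of each library (%, y axis) in each of 7 Leiden clusters, with the 3 K/B.g7 libraries left and the 3 B.g7 libraries right by age in weeks. Numbers above the bars are cells. Cluster 1 fills most of K/B.g7 at 25 weeks (117 of 211 cells), cluster 2 is the most frequent in B.g7 at 8 weeks (159 of 339) and cluster 6 in B.g7 at 3 weeks (14 of 23).

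The share of Npr3 or H19 endothelium per library was compared between genotypes. Of the barcodes kept it made up 0.698 (0.499 to 0.95), 1.18 (0.971 to 1.42) and 1.05 (0.911 to 1.20)% (exact 95% binomial intervals) in K/B.g7, against 0.609 (0.387 to 0.913), 5.87 (5.28 to 6.51) and 0.114 (0.0546 to 0.209)% in B.g7. The B.g7 library at 8 weeks stood far above and the B.g7 library at 25 weeks below all 3 K/B.g7 libraries. The mean was 0.975 ± 0.249% for the K/B.g7 libraries and 2.199 ± 3.19% for the B.g7 libraries (SD, n = 3), and a two-sided exact permutation test gave p = 1.0, where 3 against 3 cannot go below 0.1. The sign of the difference rested on the B.g7 library at 8 weeks, without which K/B.g7 was higher by 0.614 percentage points (exact permutation p = 0.2, the smallest possible for 3 against 2).

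Of the gated blood endothelium the same cells made up 13.9 (10.2 to 18.5), 29.8 (25.2 to 34.8) and 29.6 (26.3 to 33.1)% in K/B.g7, against 21.3 (14 to 30.2), 32.6 (29.8 to 35.5) and 6.76 (3.29 to 12.1)% in B.g7. The genotypes overlapped, with means of 24.4 ± 9.10% for the K/B.g7 libraries and 20.2 ± 13.0% for the B.g7 libraries (SD, n = 3, exact permutation p = 0.7). Without the B.g7 library at 25 weeks the difference turned to -2.50 percentage points. Digestion and sorting can set such shares.

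**Figure D3:**
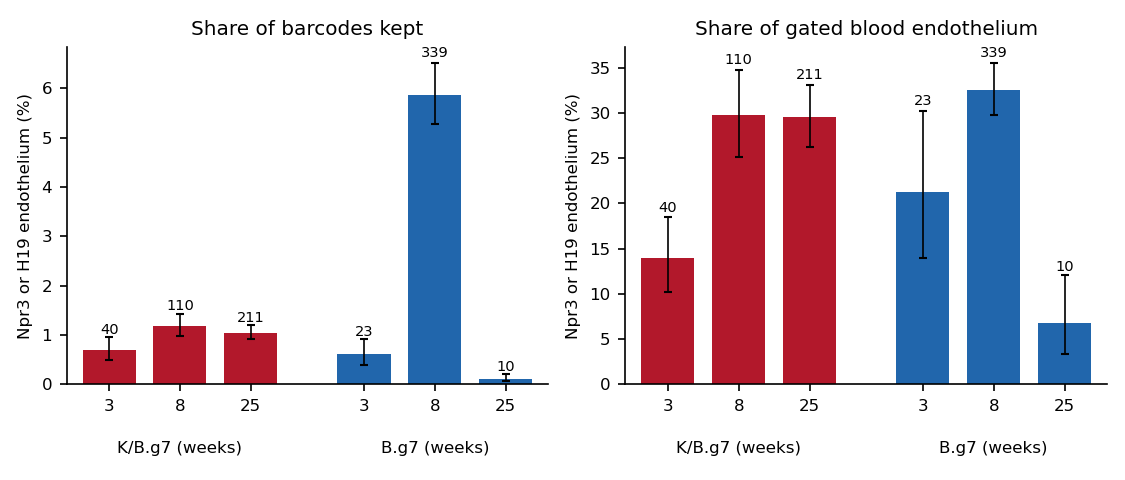
Npr3 or H19 endothelium in each library as a share of the barcodes kept (left) and of the gated blood endothelium (right), both in %, by age in weeks, with K/B.g7 left and B.g7 right in each panel. Bars are single libraries, error bars are exact 95% binomial intervals that cover counting error only, and the numbers are cells; the B.g7 bar at 8 weeks stands at 5.87% in the left panel.

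The genotypes were compared in 4 libraries, K/B.g7 and B.g7 at 3 and 8 weeks, since B.g7 at 25 weeks had fewer than 20 cells. By edgeR (quasi-likelihood, blocked by age) 9 genes were higher and 2 lower in K/B.g7 of 3890 tested (0.283% called, with 0.231% higher and 0.0514% lower, Benjamini-Hochberg FDR under 0.05). Higher were Cxcl10, Meg3, Mfap4, Ckb, Pi16, Gsn, Mfap5, Lgals1 and Nrg1, and lower were Hamp and Enpp2. Without the age block, with Npr3 alone as entry, with DESeq2 or with predicted doublets left out 0 genes were called. With all 6 libraries 2 genes were called, Cxcl10 and the hemoglobin gene Hbb-bs, and an unadjusted edgeR p under 0.05 was reached by 123 genes (3.16%) in the 4 libraries, by 149 (3.3%) in all 6, by 35 with DESeq2, by 75 without predicted doublets, by 58 without the block and by 81 with Npr3 alone. Hbb-bs was at 12.8, 6508 and 55.1 CPM in K/B.g7 and 0, 2.0 and 0 CPM in B.g7, and the 5 red cell markers summed to 44.9, 12099.6 and 110.2 CPM in K/B.g7 and 0, 8.0 and 0 CPM in B.g7, so 1 library that carries the comparison held nearly all of this signal. Cells with an Xist UMI, which marks female cells, also differed in share between genotypes, as given with age, and the part of sex was not tested. The UMIs behind several calls lay largely in 1 or 2 cells of a library, as given with Cxcl10, Hamp, Mfap4, Meg3 and Ckb.

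Cxcl10, which encodes a chemokine that draws T cells through CXCR3, had the largest fitted increase. It was at 103, 88.1 and 25.4 CPM in K/B.g7 and 0, 4.0 and 0 CPM in B.g7. The level was higher in K/B.g7 at 8 weeks, while the 0 UMIs of B.g7 at 3 and 25 weeks allow up to 45.6 and 81.3 CPM, and at 25 weeks no order can be read. The fitted log2 fold change was 4.50 ± 0.79 (SE, edgeR adjusted p = 2.55e-05). Its 16 UMIs in K/B.g7 at 3 weeks came from 2 cells, 1 of which held 15, and both cells were in clusters 5 and 6. The 25 UMIs in K/B.g7 at 8 weeks came from 6 cells, and the 4 UMIs in B.g7 at 8 weeks from 4 cells. Outside clusters 5 and 6 Cxcl10 was at 0 and 81.5 CPM in K/B.g7 and 0 and 4.49 CPM in B.g7 at 3 and 8 weeks. With any number of Fabp4-set UMIs allowed, the fitted log2 fold change was -0.03. Among the 6 tested chemokines 1 rose and 5 had a change above 0, with a median of 0.39. Over all genes tested 0.231% rose and 2088 of 3890 had a change above 0, with a median of 0.03.

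Hamp, which encodes the iron regulator hepcidin, had the largest fitted decrease. It was at 0, 56.4 and 57.2 CPM in K/B.g7 and 487, 257 and 54.2 CPM in B.g7. K/B.g7 was below B.g7 at 3 and at 8 weeks, and the fitted log2 fold change was -3.36 ± 0.55 (SE, edgeR adjusted p = 5.5e-06). The log2 fold change was -0.91 with the fibroblast genes under 0.2% and -2.13 with Npr3 alone, both without a call, and ran from -6.62 to -2.09 without 1 library. All 32 UMIs of the B.g7 library at 3 weeks lay in 1 cell, of clusters 5 and 6. At 8 weeks 6 of the 110 K/B.g7 cells held its 16 UMIs there, and 24 of the 339 B.g7 cells its 257. Outside clusters 5 and 6 Hamp was at 60.1 CPM in K/B.g7 and 275 CPM in B.g7 at 8 weeks. Cells with Npr3 or H19 and 2 or more Fabp4-set UMIs, which did not enter this fit, had a Hamp level of 19 CPM in K/B.g7 and 342 CPM in B.g7 at 8 weeks.

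Enpp2 was at 135, 66.9 and 144 CPM in K/B.g7 and 1232, 141 and 515 CPM in B.g7, with a fitted log2 fold change of -2.13 ± 0.48 (SE, edgeR adjusted p = 0.00496). Of its 81 UMIs in B.g7 at 3 weeks, 6 lay outside clusters 5 and 6. In the cells outside them its level was 61.7 and 51.5 CPM in K/B.g7 and 251 and 121 CPM in B.g7 at 3 and 8 weeks, lower in K/B.g7 at both. Nrg1, which encodes neuregulin, an endocardial growth factor for heart muscle, was at 38.5, 116 and 76.3 CPM in K/B.g7 and 45.6, 11 and 54.2 CPM in B.g7. It was called with a fitted log2 fold change of 2.62 ± 0.66 (SE, edgeR adjusted p = 0.0316). At 3 weeks K/B.g7 was below B.g7, on 6 and 3 UMIs, so no order can be read there. By that sign Nrg1 fell outside the rule for named genes and was named after its values were seen. Outside clusters 5 and 6 Nrg1 was at 61.7 CPM in K/B.g7 (4 UMIs) and 41.8 CPM in B.g7 (1 UMI) at 3 weeks. Its 33 UMIs in K/B.g7 at 8 weeks came from 12 cells, against 11 UMIs from 10 cells in B.g7. All of those 33 UMIs lay outside clusters 5 and 6.

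The other called genes are also expressed by fibroblasts. Mfap4, which encodes a microfibril protein, was at 423, 102 and 169.5 CPM in K/B.g7 and 30.4, 14 and 81.3 CPM in B.g7, and its fitted log2 fold change was 3.14 ± 0.59 (SE, edgeR adjusted p = 0.00012). Of 66 Mfap4 UMIs in K/B.g7 at 3 weeks, 62 lay in 1 cell. Gsn, which encodes the actin-severing protein gelsolin, was at 2749.5, 1977 and 2431 CPM in K/B.g7 and 122, 1298 and 10295 CPM in B.g7, with 2.15 ± 0.44 (SE, edgeR adjusted p = 0.000886). Gsn outside clusters 5 and 6 was at 154 and 566 CPM in K/B.g7 and 125 and 243 CPM in B.g7 at 3 and 8 weeks. Its log2 fold change was 0.50 with the fibroblast genes under 0.2%, with no call, and ran from 0.61 to 4.44 without 1 library. Meg3 was at 346, 49.3 and 93.2 CPM in K/B.g7 and 0, 10.0 and 0 CPM in B.g7, with 3.15 ± 0.65 (SE, edgeR adjusted p = 0.000886). All of its 54 UMIs in K/B.g7 at 3 weeks lay in clusters 5 and 6, 31 of them in 1 cell. Ckb, the brain-type creatine kinase, was at 288, 91.6 and 95.4 CPM in K/B.g7 and 15.2, 18 and 27.1 CPM in B.g7, with 2.77 ± 0.59 (SE, edgeR adjusted p = 0.00164). Of its 45 UMIs in K/B.g7 at 3 weeks 25 lay in 1 cell, and 2 lay outside clusters 5 and 6. Pi16, Mfap5 and Lgals1 had fitted log2 fold changes of 2.31, 2.04 and 1.77. Over the 7 fibroblast markers that the gate did not use, the described cells summed to 3051, 1346 and 2117 CPM in K/B.g7 and 1065, 777 and 3062 CPM in B.g7, which was 14.95, 14.1 and 19.5% of the level in gated fibroblasts of the same K/B.g7 libraries, against 6.33, 8.86 and 28.2% in B.g7. All 7 of these markers were detected, all 6 that were tested had a change above 0 and 2 of them rose (Mfap5 and Mfap4). Over all genes tested 2088 of 3890 had a change above 0 and 0.231% were called higher. The part of fibroblast RNA in these changes was not tested, and outside clusters 5 and 6 Mfap4 was at 0 and 38.6 CPM in K/B.g7 and 83.6 and 4.49 CPM in B.g7 at 3 and 8 weeks, and at 3 weeks, where 3 UMIs equal 46.3 CPM in K/B.g7 and 125 CPM in B.g7, no order can be read. Meg3 was there at 0 and 4.29 CPM in K/B.g7 and 0 and 0 CPM in B.g7. Ckb was there at 30.9 and 30.03 CPM in K/B.g7 and 0 and 8.99 CPM in B.g7. Pi16 was at 92.6 and 60.1 CPM in K/B.g7 and 125 and 28.1 CPM in B.g7, with K/B.g7 not higher at 3 weeks. Mfap5 was at 169.8 and 77.2 CPM in K/B.g7 and 41.8 and 19.1 CPM in B.g7, and Lgals1 at 417 and 180.2 CPM in K/B.g7 and 167 and 74.1 CPM in B.g7.

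**Figure D4:**
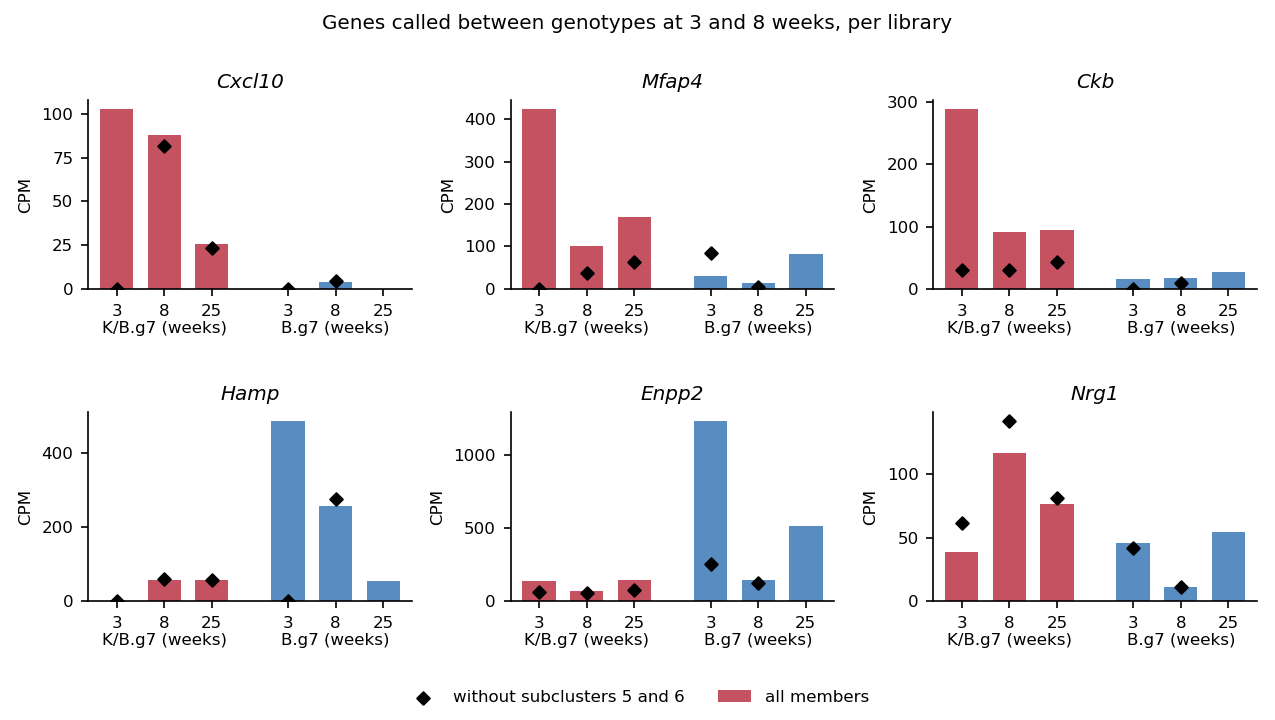
Levels in CPM (y axis) of 6 genes called between genotypes at 3 and 8 weeks, per library by age in weeks, with K/B.g7 left (red) and B.g7 right (blue). Bars are all cells of the Npr3 or H19 endothelium; diamonds leave out clusters 5 and 6 and are not drawn for B.g7 at 25 weeks, where 3 cells are left. At 3 weeks the Cxcl10 bar of K/B.g7 and the Hamp bar of B.g7 have their diamond at 0.

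Most gene groups held no call between genotypes. Of 10 tested pan-endothelial genes 0 were called by edgeR and 0 had a change above 0, with a median log2 fold change of -0.36. Over all genes tested 0.283% were called, 2088 of 3890 had a change above 0 and the median was 0.03. The 8 shear-stress genes had a median of -0.27, the 7 Notch genes -0.23, the 15 BMP and TGF-beta genes -0.09 and the 12 hemostasis genes -0.27, each with 0 calls. Of 13 class I and 2 class II genes of the major histocompatibility complex (MHC) 0 were called, with a median of 0.30 in class I. Under the rule for named genes, those of smallest p without a call were Cd300lg, Apoc1 and Ttc9, all with a change below 0. Cd300lg, an endothelial glycoprotein, was at 103, 45.8 and 29.7 CPM in K/B.g7 and 167, 343 and 135 CPM in B.g7 (edgeR adjusted p = 0.0701). Apoc1, an apolipoprotein, and Ttc9 had edgeR adjusted p-values of 0.0701 and 0.0993. The self-test recovered 12.5% of genes set to a 4-fold change in this design and 0% of those set to a 2-fold change.

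Age was compared between 25 and 3 weeks in all 6 libraries, with both genotypes as replicates. Of 4519 genes 0 were higher and 2 lower at 25 weeks (0.0443% called, edgeR FDR under 0.05), while 501 had an unadjusted edgeR p under 0.05 and DESeq2 called 9. The 2 genes were Stmn1, a regulator of microtubules, and Rtn1, a reticulon known from neurons. Stmn1 was at 577, 66.9 and 57.2 CPM in K/B.g7 and 365, 31 and 27.1 CPM in B.g7. Its fitted log2 fold change was -3.46 ± 0.56 (SE, edgeR adjusted p = 0.0268), and Rtn1 had -4.08 ± 0.69 (SE, edgeR adjusted p = 0.0268). Rtn1 was at 820.4, 49.3 and 31.8 CPM in K/B.g7 and 198, 39 and 54.2 CPM in B.g7. Outside clusters 5 and 6, at 3, 8 and 25 weeks, Stmn1 was at 231, 34.3 and 66.9 CPM in K/B.g7 and 125, 27 and 183 CPM in B.g7. Rtn1 was there at 15.4, 38.6 and 29.1 CPM in K/B.g7 and 83.6, 34.8 and 0 CPM in B.g7, so that no fall is seen in K/B.g7, where its level at 3 weeks is 1 UMI. With 3 cells left there, B.g7 at 25 weeks gives no order. Without K/B.g7 at 3 weeks the change of Rtn1 was -2.52, and without K/B.g7 at 25 weeks -2.42, both without a call. Stmn1 is also a leading gene of cluster 6, and the 11 neuronal markers summed to 5852, 35.2 and 42.4 CPM in K/B.g7 and 380.2, 65 and 108.4 CPM in B.g7. With a Pecam1 or Cdh5 UMI required and cells with 3 or more neuronal UMIs left out, 0 genes were called and the change of Rtn1 was -1.25. Leaving out 1 library at a time gave between 5 and 95 calls. The metallothionein genes Mt1 and Mt2 came closest to a call at 25 weeks, with edgeR adjusted p-values of 0.0705 and 0.118.

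Cells of 8 weeks were compared with those of 3 weeks in the 4-library fit, a comparison added after the data were seen. Of 3890 genes 70 were higher and 44 lower at 8 weeks (2.93% called, edgeR FDR under 0.05). Genes of the MHC rose together, several basement membrane genes fell, and the Notch targets Hey1 and Hes1 were among those that rose. DESeq2 called 32 genes, 32 of them shared with these 114, and 17 genes were called with all 6 libraries. With predicted doublets left out 0 genes were called, while 430 had an unadjusted edgeR p under 0.05, against 583 with them. Their fitted changes stayed close, at a log2 fold change of 3.01 for H2-Q4, -4.67 for Lsamp and -3.23 for Stmn1 without doublets, against 3.15, -4.53 and -3.20 with them. Cells with an Xist UMI were 9 of 40, 90 of 110 and 22 of 211 for K/B.g7 and 13 of 23, 318 of 339 and 8 of 10 for B.g7, so the mix of sexes moved with age and with genotype and its part was not tested.

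MHC class I molecules present peptides on nearly all cells, with B2m as their shared light chain, and class II molecules need the invariant chain Cd74. Of 13 tested class I genes 6 rose at 8 weeks and 13 had a change above 0, with a median log2 fold change of 1.70, against 0.02 over all genes and 1.8% called higher. B2m was at 320.5, 958 and 691 CPM in K/B.g7 and 198, 1098 and 650.2 CPM in B.g7, with a fitted log2 fold change of 2.08 ± 0.44 (SE, edgeR adjusted p = 0.000483). H2-K1 was at 519, 1357 and 968 CPM in K/B.g7 and 243, 1525 and 704 CPM in B.g7, with 2.05 ± 0.43 (SE, edgeR adjusted p = 0.000337). In both genotypes both genes were lowest at 3 weeks, highest at 8 weeks and between at 25 weeks. H2-D1, H2-Q4 and H2-Q7 also rose, by fitted log2 fold changes of 1.56, 3.15 and 3.94. H2-Q6 rose as well and was at 0, 169 and 42.4 CPM in K/B.g7 and 0, 84 and 0 CPM in B.g7, with 0 UMIs in both libraries of 3 weeks, so that no fold is given for it and it enters the median as a fitted value. It passed the filter on low counts only through the 8-week libraries. These class I genes are near-identical copies, so the split of reads among them is uncertain, and the g7 haplotype of these mice is not that of the reference strain.

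Of 8 class II genes 2 were tested, Cd74 and H2-Ab1, and both were called higher at 8 weeks by edgeR. Both had 0 UMIs in the libraries of 3 weeks. They thus passed the filter on low counts only through the 8-week libraries, so this count says little of the class. Cd74 was at 0, 134 and 50.9 CPM in K/B.g7 and 0, 55 and 0 CPM in B.g7, with 0 UMIs in both libraries of 3 weeks. Its 38 UMIs in K/B.g7 at 8 weeks came from 22 cells, and its 55 UMIs in B.g7 from 24 cells. H2-Ab1 was at 0, 84.6 and 8.48 CPM in K/B.g7 and 0, 58 and 0 CPM in B.g7, in 14 K/B.g7 cells and 32 B.g7 cells at 8 weeks. Free RNA can give such counts, and Cd74 was at 12.2, 224 and 24.7 CPM in K/B.g7 and 1.14, 24 and 32 CPM in B.g7 in gated fibroblasts of the same libraries and H2-Ab1 at 14, 109 and 9.66 CPM in K/B.g7 and 5.10, 20.8 and 16.4 CPM in B.g7. In K/B.g7 at 8 weeks the described cells did not exceed the fibroblasts for Cd74 or H2-Ab1. In B.g7 at 8 weeks they did for both genes, and the part of free RNA in these levels was not tested. In cells with Ptprc of the K/B.g7 library at 8 weeks Cd74 was at 12564 CPM. Cd74 outside clusters 5 and 6 was at 98.7 CPM at 8 weeks against 0 CPM at 3 weeks in K/B.g7, and 53.9 CPM at 8 weeks against 0 CPM at 3 weeks in B.g7. At 3 weeks 3 UMIs equal 46.3 CPM in K/B.g7 and 125 CPM in B.g7 there, so no order can be read in B.g7. The summed level of 8 immune cell markers was 0, 56.4 and 65.7 CPM in K/B.g7 and 15.2, 21 and 0 CPM in B.g7. The same ages differed in the Fabp4 set of the same libraries, where B2m was at 157, 1538 and 626 CPM in K/B.g7 and 164, 1306 and 550.4 CPM in B.g7 and Cd74 at 3.13, 491 and 44.3 CPM in K/B.g7 and 1.18, 368 and 168 CPM in B.g7. Outside clusters 5 and 6, B2m was at 974 CPM at 8 weeks against 417 CPM at 3 weeks in K/B.g7, and 1077 CPM at 8 weeks against 125 CPM at 3 weeks in B.g7. H2-K1 was there at 1377 CPM at 8 weeks against 911 CPM at 3 weeks in K/B.g7, and 1501 CPM at 8 weeks against 209 CPM at 3 weeks in B.g7. H2-D1 was there at 1334 CPM at 8 weeks against 1358 CPM at 3 weeks in K/B.g7, and 1868 CPM at 8 weeks against 125 CPM at 3 weeks in B.g7. It was thus higher at 8 weeks in B.g7 and not in K/B.g7. In the 9 cells of B.g7 at 3 weeks, with 23933 UMIs, the 125 CPM of B2m and of H2-D1 is 3 UMIs each. The rises of B.g7 rest on such low counts at 3 weeks, and no difference between genotypes can be read from them. Of 6 tested interferon-gamma genes Iigp1, a GTPase against pathogens, rose (log2 fold change 3.19), and 6 had a change above 0. Over all genes tested 1.8% rose and 1987 of 3890 had a change above 0. Of 4 type I interferon genes 0 were called by edgeR.

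The stretches before the start sites of the class I genes that rose are shown because they share 2 short patterns. They come from RefSeq promoters of GRCm38.p6, which is mm10, so they show the reference strain and not the g7 haplotype. Both strands of the 250 bases before each start were searched for GAANNGAAA, a pattern of interferon-stimulated response elements, and for GGGNNTTCC, a pattern of NF-kappaB sites. Capitals mark the matches: GGGNNTTCC on the gene's strand and GAANNGAAA on the opposite strand. Windows are 5′ to 3′ on the gene's strand.
H2-K1 (chr17:34000414-34000473, minus strand): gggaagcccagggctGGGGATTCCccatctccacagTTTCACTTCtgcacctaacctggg
H2-D1 (chr17:35262908-35262967, plus strand): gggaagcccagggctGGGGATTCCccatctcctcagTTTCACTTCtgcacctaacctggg
H2-Q4 (chr17:35379429-35379488, plus strand): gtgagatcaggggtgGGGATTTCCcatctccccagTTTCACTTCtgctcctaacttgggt
H2-Q6 (chr17:35424662-35424721, plus strand): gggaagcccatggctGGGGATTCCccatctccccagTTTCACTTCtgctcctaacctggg
H2-Q7 (chr17:35439007-35439066, plus strand): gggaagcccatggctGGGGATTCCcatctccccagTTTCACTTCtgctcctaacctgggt
All 5 class I promoters held both patterns with no overlap between them, while B2m held neither, and Cd74 and H2-Ab1 were not matched. Over 32851 promoters 6.31% held GAANNGAAA, 4.98% held GGGNNTTCC and 0.332% held both. The windows of these copies are nearly alike, so they are not independent, and a match says nothing of binding in these cells.

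**Figure D5:**
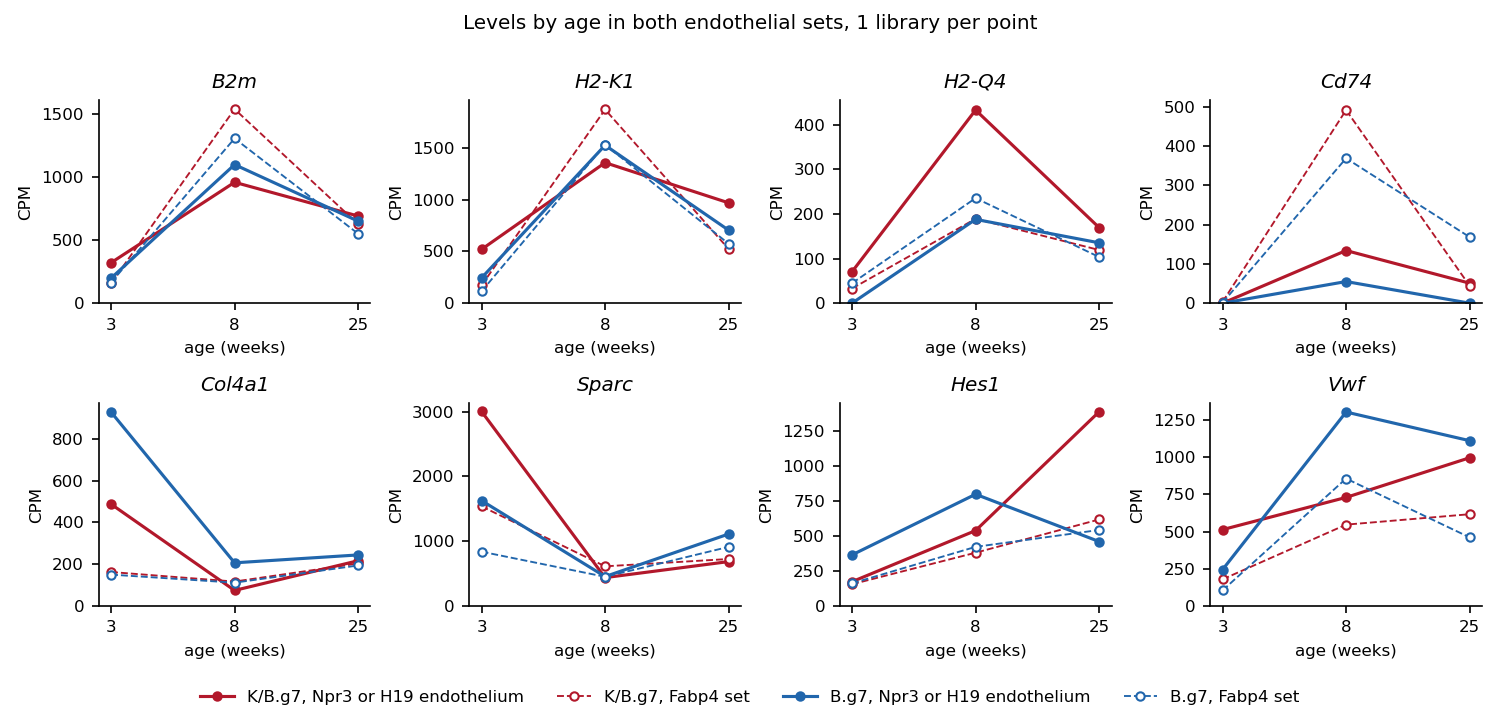
Levels in CPM (y axis) of 8 genes at 3, 8 and 25 weeks (x axis), 1 library per point, for K/B.g7 (red) and B.g7 (blue). Filled points and solid lines are the Npr3 or H19 endothelium, open points and dashed lines the Fabp4 set. B2m, H2-K1, H2-Q4 and Cd74 peak at 8 weeks in both genotypes and both sets, while Col4a1 and Sparc are highest at 3 weeks in the filled points.

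Of 13 tested basement membrane and matrix genes 4 fell at 8 weeks and 5 had a change above 0, with a median log2 fold change of -0.35, where 1.13% of all genes were called lower. Col4a1, which encodes a chain of the collagen IV network, was at 487, 74 and 216 CPM in K/B.g7 and 928, 206 and 244 CPM in B.g7, with a fitted log2 fold change of -2.30 ± 0.45 (SE, edgeR adjusted p = 8.12e-05). Sparc, a matrix protein that binds collagen, was at 3006, 437 and 684 CPM in K/B.g7 and 1627, 453 and 1111 CPM in B.g7, with -2.20 ± 0.40 (SE, edgeR adjusted p = 2.2e-05). Both were highest at 3 weeks in both genotypes. Col4a2 and Col18a1 fell by 2.18 and 2.30 on the log2 scale. Outside the list, Postn, Eln and Fn1, which encode periostin, elastin and fibronectin, fell by 2.29, 1.99 and 1.35. Outside clusters 5 and 6 Col4a1 was at 72.9 CPM at 8 weeks against 602 CPM at 3 weeks in K/B.g7, and 208 CPM at 8 weeks against 1128 CPM at 3 weeks in B.g7. Sparc was there at 386 CPM at 8 weeks against 1960.0 CPM at 3 weeks in K/B.g7, and 412 CPM at 8 weeks against 1671 CPM at 3 weeks in B.g7, and both were lower at 8 weeks in both genotypes. Hapln1, Lsamp, Stmn1, Rtn1, Nsg1, Ccdc141, Ddah1, Kif21a, Gdf15 and Mfap2 had the largest fitted decreases, and Lsamp, Stmn1, Nsg1 and Ccdc141 are leading genes of cluster 6. Outside clusters 5 and 6 Stmn1, Nsg1, Ddah1 and Mfap2 were lower at 8 weeks in both genotypes. There Hapln1, Kif21a and Ccdc141 were not lower in B.g7, and Lsamp, Gdf15 and Rtn1 not in K/B.g7. Hapln1 was at 15.4 and 4.29 CPM in K/B.g7 and 0 and 1.12 CPM in B.g7 at 3 and 8 weeks. At 3 weeks 3 UMIs equal 46.3 CPM in K/B.g7 and 125 CPM in B.g7 there, so several of these levels give no order.

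Single genes of other lists rose at 8 weeks, where 1.8% of all genes were called higher. Hey1 and Hes1, transcription factors switched on by Notch, rose by 2.19 and 1.498 on the log2 scale (2 of 7), and all 7 tested Notch genes had a change above 0 (median 0.99). Hes1 was at 173, 539 and 1390.2 CPM in K/B.g7 and 365, 799 and 461 CPM in B.g7. It was lowest at 3 weeks in both genotypes. Hes1 outside clusters 5 and 6 was at 523 CPM at 8 weeks against 201 CPM at 3 weeks in K/B.g7, and 793 CPM at 8 weeks against 251 CPM at 3 weeks in B.g7. Bmpr2, a BMP receptor, and Smad6, an inhibitor of BMP signals, rose by 1.56 and 2.11 among 15 genes of that list. Vwf rose by 1.48 among 12 hemostasis genes, and Vcam1, an adhesion molecule for leukocytes, by 1.52 among 8 adhesion genes. Vwf outside clusters 5 and 6 was at 806 CPM at 8 weeks against 1019 CPM at 3 weeks in K/B.g7, and 1371 CPM at 8 weeks against 459.6 CPM at 3 weeks in B.g7, which turned its direction in K/B.g7. C4b, which encodes a complement component, rose by 2.97. The genes of largest fitted increase also held Chrm3, Tnfsf10, Hmbox1 and Sik1.

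The genotype difference was tested against that in the Fabp4 set of the same libraries at 3 and 8 weeks, with the library as a block. Of 7740 genes 9 differed upward and 1 downward (0.129% called, with 0.116% upward and 0.0129% downward, edgeR FDR under 0.05), and 442 (5.71%) had an unadjusted p under 0.05. Cxcl10 differed by 5.29 ± 0.75 (SE, edgeR adjusted p = 0.032) and Ckb by 4.01 ± 0.54 (SE, edgeR adjusted p = 0.0295). In the Fabp4 set Cxcl10 was at 18.8, 108.5 and 12.3 CPM in K/B.g7 and 107, 133 and 48.4 CPM in B.g7, so K/B.g7 was below B.g7 there at 3 and at 8 weeks. Cartpt, Pcsk1n and Gng3, which are known from neurons, were also called, beside neuronal sums of 21208, 239 and 276 CPM in K/B.g7 and 27797, 2111 and 230.3 CPM in B.g7 in the Fabp4 set. In the described cells these sums were 5852, 35.2 and 42.4 CPM in K/B.g7 and 380.2, 65 and 108.4 CPM in B.g7. Over the K/B.g7 libraries Cartpt averaged 508 ± 881, Pcsk1n 221 ± 380 and Gng3 117 ± 193 CPM there (SD), so each rests mostly on 1 library. In K/B.g7 at 3 weeks 5 of 40 described cells held 3 or more neuronal UMIs. Nerve markers moved with these calls, and their part was not tested. With RLE size factors 0 genes were called. Igkc, an immunoglobulin light chain gene named after its values were seen, was the 1 gene that differed downward. The 5 immunoglobulin markers summed to 0, 56.4 and 19.1 CPM in K/B.g7 and 0, 17 and 27.1 CPM in B.g7 in the described cells, and to 0.783, 26278 and 2.46 CPM in K/B.g7 and 0, 2.71 and 2.30 CPM in B.g7 in the Fabp4 set, where 1 library held nearly all of them. Their part was not tested.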

How the data were processed

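Live single cells of mouse mitral valves were profiled in 6 libraries, 1 per genotype and age, with 3′ droplet sequencing. The deposited values are UMI counts per gene and barcode, which the authors made with Cell Ranger 3.1.0 against mm10, per the submitters' processing notes, with no annotation version named. The cells, gene lists and rules were chosen with earlier results of these data known. Counts were summed per library over the selected cells. Fits used edgeR 4.0.16 (quasi-likelihood, TMM, age as a block) with Benjamini-Hochberg adjustment over all tested genes except the 17 gate genes and mitochondrial genes, at 0.05. Named genes were, per direction, up to 10 called genes of largest change with 1 sign at all ages fitted (for age, in both genotypes) at a mean of at least 20 CPM, filled up to 5 by smallest p; 5 by smallest p for the difference between cell sets; 15 by median ratio at 50 CPM against the Fabp4 set; and list members that were called or of highest level. Genes for ribosomal proteins, hemoglobins or immunoglobulins, mitochondrial and Y-linked genes, Xist, Tsix and genes without a proper name were left out. Against the Fabp4 set no test was run. The same age in both genotypes gave a block from the labels. Scrublet's automatic threshold marked 45 of 53526 barcodes and was not used; a rate of 0.8% per 1000 barcodes marked 5203, 43 of them among the 733 cells, which were kept. Libraries shared 346 of 58004 distinct barcodes, 4 of them among the 733. The edgeR fits were tested on simulated data. Intervals cover counting error only.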

Additional observations from a re-analysis of the deposited data

Results flagged for a closer look

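The genotype difference of 9 genes was higher in the Npr3 or H19 endothelium than in the Fabp4 set by edgeR's test of that difference at 3 and 8 weeks. On the log2 scale the difference was 11.7 for Gng3, 10.6 for Cartpt, 9.80 for Pcsk1n, 6.79 for Uchl1, 5.29 for Cxcl10, 5.11 for Sncg, 4.67 for Chchd10, 4.64 for Tpm2 and 4.01 for Ckb. Several of these genes had 0 UMIs in a group, and such fitted values depend on the prior count and are no bounds. For Gng3, Cartpt and Pcsk1n the SD among the K/B.g7 libraries exceeded the mean in the described cells.

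The difference in the share of the Npr3 or H19 endothelium, K/B.g7 minus B.g7, changed sign between ages and was not tested per age, since each value rests on 1 library of each genotype. Of the barcodes kept it was 0.0890 percentage points at 3 weeks, -4.69 at 8 weeks and 0.933 at 25 weeks. Of the gated blood endothelium it was -7.36 percentage points at 3 weeks, -2.79 at 8 weeks and 22.8 at 25 weeks.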

How the results depend on the processing

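The 11 calls between genotypes became 0 with Npr3 alone as entry, 2 with the fibroblast genes under 0.2%, 0 without predicted doublets, 29 without a filter on low counts, 0 with DESeq2, 2 with all 6 libraries, 42 with any number of Fabp4-set UMIs (40 with all 6 libraries), and 1 with Pecam1 or Cdh5 present, few neuronal UMIs and all 6 libraries. Without the replicate block 0 genes were called; deviations of the paired ages correlated at 0.296 over only 2 ages. The 114 calls of 8 against 3 weeks became 13 with Npr3 alone, 63 with at least 2 UMIs of Npr3 and H19, 0 without doublets, 32 with DESeq2, 17 with all 6 libraries and 1149 with any Fabp4-set UMIs. The 2 calls of 25 against 3 weeks became 10, 0 and 18 under the first 3 entry and fibroblast limits, 68 without the filter, 9 with DESeq2, 761 with any Fabp4-set UMIs, 0 with the neuronal limit, and 5 to 95 without 1 library. The 10 calls of the difference between cell sets became 38, 27 and 58 under those limits, 44 without doublets, 0 with RLE, 62 without the filter and 2 with any Fabp4-set UMIs. Cxcl10 turned to -0.0313 and, with 6 libraries, -0.76 with any Fabp4-set UMIs, and Nrg1 ran from -0.22, without either 8-week library, to 2.92. The share difference ran from -2.27 to 0.614 points of barcodes kept and from -2.50 to 10.4 of endothelium without 1 library, and was -0.588 of endothelium with any Fabp4-set UMIs. Thinned to 1500 UMIs, H19 alone admitted 7.681% and both genes 39.73%. Against the Fabp4 set, Comp ranked above Plagl1 at a pseudocount of 1 CPM, with at least 2 UMIs of Npr3 and H19 and with the neuronal limit. The causes were not tested. Leaving 1 library out of a 4-library fit gives values with no test, and the difference between cell sets was not run that way.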
